A study of Hydra viridissima with 2 samples.

Results

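Genes annotated with alternative exon boundaries were examined in the green hydra, Hydra viridissima, a freshwater polyp that can house green algae in its epithelial cells. A gene model was taken when at least 2 different intervals of its coding sequence overlapped each other by at least 1 bp, which shows that the annotation holds more than 1 form of the gene. Models with a coding length of 10000 nt or more were left out. Of 34573 models, 3042 met this rule, 8.80%. They were set beside the 12939 models under the same length limit that have at least 2 intervals and no overlap among them, called the comparison set here. The rule itself uses no read count. The annotation it rests on can draw on RNA-seq reads, however, and the rule was chosen with earlier results of these data known.

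Each of the 2 libraries came from about 200 large whole polyps, pooled, of the laboratory line named clone 2. One group was aposymbiotic, that is, kept without algae, and the other was green, with its algae (symbiotic). Both were fed brine shrimp, and both libraries were made from total RNA with enzymatic depletion of ribosomal RNA. With 1 library per condition, no difference between the conditions could be tested, and each value below describes these libraries. The aposymbiotic library held 5533508 counted read pairs and the symbiotic library 6905650. The members took 14.8% of both, with 95% Clopper-Pearson intervals of 14.80 to 14.86% and 14.77 to 14.82%, which cover counting error only.

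As background, most animal genes are copied into a precursor RNA from which introns are removed, and the splicing machinery marks each intron by a donor site at its upstream end and an acceptor site at its downstream end. When a pair of nearby sites can serve, the exon gains or loses a stretch of sequence, and an intron that is left in place joins its neighbouring exons. If the stretch is a multiple of 3 nt, the reading frame continues, and otherwise it shifts. Tandem acceptors 3 nt apart, of the form NAGNAG, and tandem donors 4 nt apart are known as frequent kinds of alternative site in mammals. A further kind of alternative form does not involve splicing: the coding sequence can start at a different in-frame position of the same exon. The intervals analysed here are coding intervals, since nearly all coding lengths are multiples of 3, so an alternative in an untranslated region does not show. No gene names are paired with the models, which are therefore given by scaffold and position.

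The members fell into separate structural kinds. When the overlapping intervals of a model were merged into blocks, which count as exons below, 1813 members had several blocks and 1229, 40.4%, had 1 block. In 1153 of the members of 1 block no intron was annotated in any form. Most members differed at a single place: 2620, 86.1%, had 1 overlapping pair of intervals, 319 had 2 pairs and 103 had 3 or more, up to 8. The largest number of listed intervals over any base, the smallest number of transcripts the model must have, was 2 in 2824 members, 3 in 185 and 4 or more in 33.

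**Figure D1:**
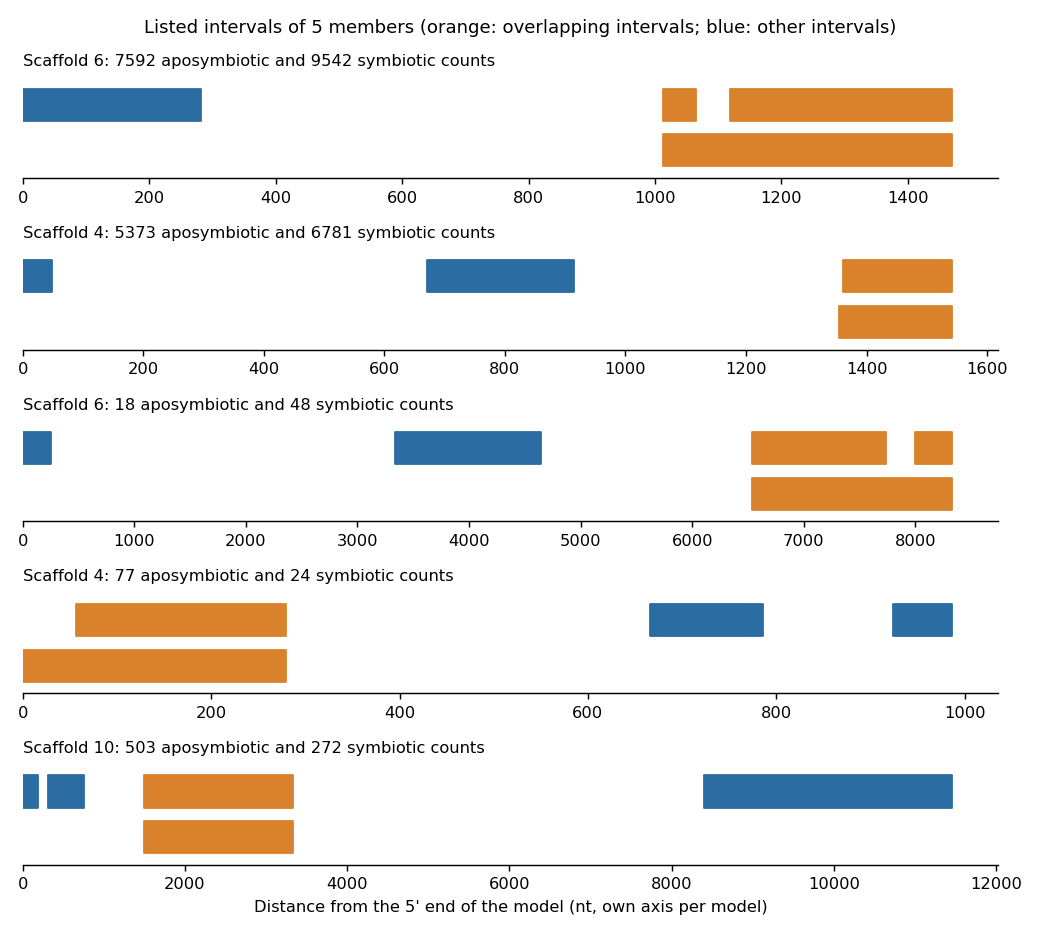
Coding intervals of 5 members, drawn by distance in nt from the 5′ end of each model (own axis per model); orange bars overlap another interval and blue bars do not. From the top, they show an intron of 54 nt spanned by a longer interval, acceptors 6 nt apart, a spanned intron of 252 nt, starts 57 nt apart and donors 4 nt apart, with 7592 and 9542, 5373 and 6781, 18 and 48, 77 and 24, and 503 and 272 aposymbiotic and symbiotic counts.

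Across all members there were 3612 overlapping pairs. In 1702, 47.1%, the intervals shared their 3′ end, began at different positions, and had no coding interval upstream, so they differed in where the coding sequence starts. In 777, 21.5%, they began at different positions with an interval upstream, the acceptor side of an intron. In 664, 18.4%, they ended at different positions with an interval downstream, the donor side. In 418 pairs, 11.6%, 1 of the intervals spanned a gap between others, as a retained intron does. The rest were 14 pairs with different ends and nothing downstream, 15 with 1 interval inside the other, and 22 that were staggered. An upstream interval need not belong to the same transcript as the pair, so the acceptor and donor sides were also counted in the 799 members of several blocks that differed at 1 boundary alone and shared every other interval.

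Acceptor and donor differences had different preferred sizes. Among members of several blocks, 172 of 775 acceptor pairs lay exactly 3 nt apart, 22.2% (95% Clopper-Pearson interval 19.3 to 25.3). On the donor side 19 of 663 did, 2.87%. There the most frequent distance was 4 nt, in 78 pairs, 11.8% (9.41 to 14.5), against 22 pairs, 2.84%, on the acceptor side. A 3-nt difference adds or removes 1 codon. A 4-nt difference by itself shifts the frame, which another difference in the same form can restore. Of the 4-nt pairs, 41 donor and 3 acceptor pairs lay in members with a single overlapping pair. After 4 nt, donor distances of 9 nt (42 pairs) and 12 nt (41 pairs) were the most frequent, and on the acceptor side no distance up to 30 nt other than 3 nt exceeded the 31 pairs at 12 nt. The intervals cover counting error over pairs, and pairs of the same model are not independent.

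**Figure D2:**
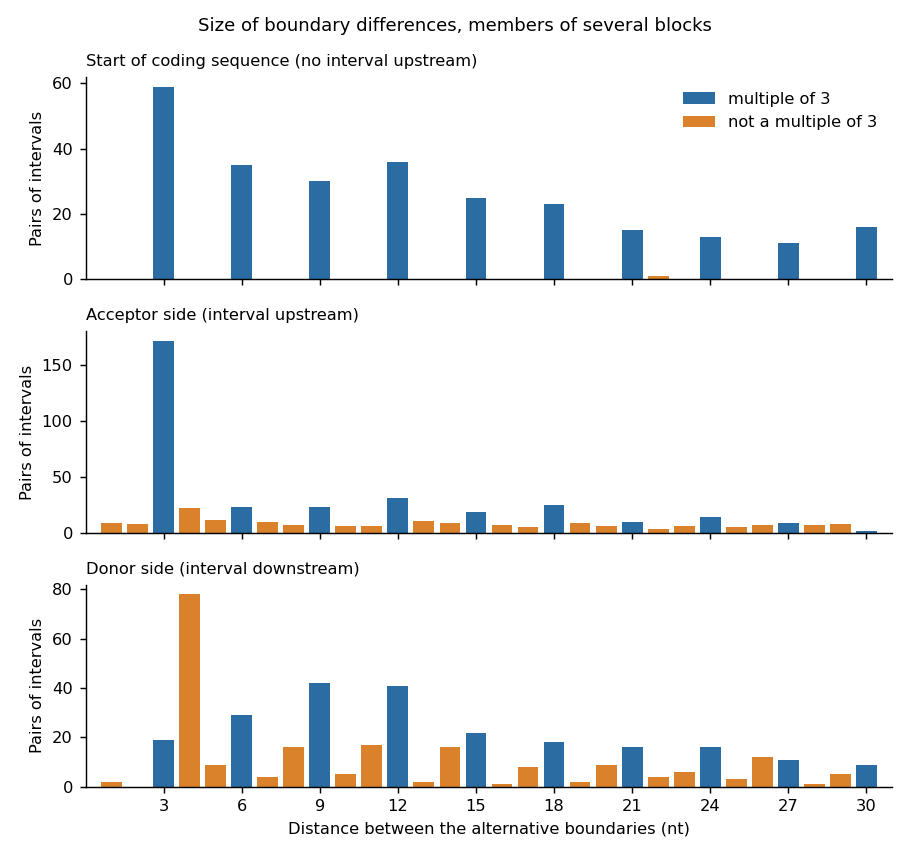
Number of overlapping pairs of intervals (y axis) by the distance between their alternative boundaries in nt (x axis, up to 30 nt) in members of several blocks, for starts, acceptor sides and donor sides; blue bars are multiples of 3 and orange bars are not. Acceptor pairs peak at 3 nt with 172 pairs and donor pairs at 4 nt with 78, and start pairs lie almost wholly on multiples of 3.

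Many boundary differences kept the reading frame. Of the acceptor pairs in members of several blocks, 60.9% were a multiple of 3, and 49.8% were when the 3-nt pairs were left out. Of the donor pairs 51.6% were. An even spread over the 3 remainders would give 33.3%. The pairs include 228 acceptor and 132 donor pairs of members that differed at 1 boundary alone. Those keep the frame by construction, as described below, so the excess over 33.3% was partly fixed in advance. The donor pairs that were not multiples of 3 left a remainder of 2 in 185 pairs and of 1 in 136, and the acceptor pairs left 2 in 139 and 1 in 164. The median distance was 18 nt (quartiles 4 and 45) at acceptors and 20 nt (9 and 47.5) at donors, about 1.01% and 1.27% of the coding length.

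In the 799 members that differed at 1 boundary alone, 794 pairs were a shifted start, acceptor or donor, and all 794 shifts were multiples of 3. Of their 228 acceptor pairs 123 were 3 nt apart, 53.9%, and of their 132 donor pairs 17 were, 12.9%. No 4-nt donor pair was among them. A form that shares every other coding interval and ends at the same place must keep the frame in a complete coding sequence, so this subset holds frame-keeping shifts by its construction. The coding length, counted over all forms together, was not a multiple of 3 in 393 of the 1813 members of several blocks. In the comparison set it was not in 132 of 12939 models. Of these, 130 were among the 381 comparison models that list an interval more than once.

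Alternative starts were in frame in 1700 of 1702 pairs. Forms that share the rest of a complete coding sequence must start a multiple of 3 apart, so this share is largely fixed by the definition. In members of several blocks alternative starts were short, with a median of 27 nt (quartiles 9 and 63). Of these 482 pairs, 59 lay 3 nt apart, the distance of adjacent codons. In members of 1 block the median was 90 nt (66 and 219), 15.2% of the coding length, and 15 of 1220 lay 3 nt apart.

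The place of a pair along its model is partly fixed by how the kinds were defined: a start pair has nothing upstream, and an acceptor pair has. In members of at least 3 blocks, 501 pairs lay in the first block, 25.5%, and 391 of them were starts, which can lie nowhere else. Without starts, 110 of 1574 pairs lay in the first block, 6.99%, where first blocks were 8.16% of all blocks. Acceptor pairs lay in inner blocks in 92.9% and in the last block in 7.14%. Of donor pairs 86.8% lay in inner blocks and 13.0% in the first.

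The share of multi-exon models that were members increased with exon number, from 5.67% of models with 2 exons and 10.0% of those with 3 to 4 to 14.7%, 16.5% and 21.8% of those with 5 to 9, 10 to 19 and 20 or more. Per intron the order was the opposite at high exon number. Acceptor pairs numbered 8.43 per 1000 introns in models of 2 exons, 12.9 and 11.5 in those of 3 to 4 and 5 to 9, and 6.75 and 4.71 in those of 10 to 19 and 20 or more. Donor pairs numbered 22.2 per 1000 introns in models of 2 exons and decreased at each step to 12.9, 9.77, 4.68 and 3.14. Members with an alternative start made up 2.32% of models of 2 exons and between 3.48% and 3.85% of the larger classes.

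Introns that another interval spanned were short. There were 205 of them in 199 members, with a median of 93 nt (quartiles 74 and 126), and 56.6% were under 100 nt. Introns between the blocks of the comparison set had a median of 216 nt (122 and 576), and 14.6% were under 100 nt. The other introns of the same members of several blocks had a median of 221 nt, so the short length belonged to the spanned introns and not to all introns of these genes. Of the spanned introns 73.7% were a multiple of 3 (95% Clopper-Pearson interval 67.1 to 79.5), against 33.5% of introns in the comparison set. The share was 88.8% of the 125 spanned introns in members of several blocks, while in members of 1 block it was 40 of the 80. A form that reads through an intron and shares the rest of a complete coding sequence must gain a multiple of 3. The excess over 33.5% was thus partly fixed by construction, and how many forms share the rest was not counted. An intron read through as coding sequence has to be free of stop codons in frame, and no sequence was read here.

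Members of several blocks were longer than multi-exon models without overlaps, with more exons and higher levels. Levels are given as CPM per kb, read pairs scaled to a common library total and divided by coding length in kilobases, so that models of different length can be compared. The median level was 18.5 CPM per kb in the aposymbiotic library (quartiles 6.68 and 37.4) and 18.6 in the symbiotic library (7.03 and 37.8). In the comparison set it was 12.4 (2.33 and 29.8) and 12.5 (2.30 and 30.1). The median coding length was 1539 nt (quartiles 1014 and 2517) against 1125 nt (612 and 1908), and the median exon number 8 (4 and 15) against 4 (2 and 10). The quartile ranges of both sets overlap widely in each of these measures. The annotation program can draw on RNA-seq reads, and which reads it used is not given. Level and membership may therefore not be independent, here and in the comparisons of level below. Whether models with more reads were given more forms was not tested. Over all 3042 members the order of levels was reversed, at 5.49 and 5.53 CPM per kb, since the members of 1 block described below enter there. The median length of all members was 1267.5 nt and the median exon number 3.

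At equal exon number the median level of members was above that of the comparison set in each class and in both libraries. As a factor, the difference was larger in models of few exons. Members of 2 exons stood at 2.45 and 2.49 CPM per kb, and the comparison models of 2 exons at 1.51 in both libraries. Among models of 3 to 4 exons the median was 10.03 in members and 8.16 in the comparison set in the aposymbiotic library, and 9.38 and 8.11 in the symbiotic library. Among models of 5 to 9 exons it was 19.6 and 18.9, then 19.2 and 19.1. Among models of 10 to 19 exons it was 25.5 and 24.5, then 25.8 and 24.8. With 20 or more exons it was 26.9 and 25.3, then 26.9 and 26.1. The quartile ranges of both sets overlap in every class, such as 14.1 to 47.0 for members of 10 to 19 exons in the aposymbiotic library.

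At equal coding length the order was the same, and the gap was wider among short models. Up to 543 nt, members of several blocks had medians of 12.1 and 12.8 CPM per kb in the aposymbiotic and symbiotic libraries, against 5.42 and 5.37 in the comparison set. From 546 to 939 nt they had 17.9 and 18.7 against 10.4 and 10.3. From 942 to 1410 nt it was 15.6 and 15.1 against 14.4 and 14.2, from 1413 to 2145 nt 18.4 and 18.5 against 14.8 and 15.3, and from 2148 nt upward 21.6 and 22.6 against 17.7 and 18.4. Members had a median of 3 exons against 2 in the shortest class and 9 against 7 from 1413 to 2145 nt, so exon number was not equal within these classes.

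**Figure D3:**
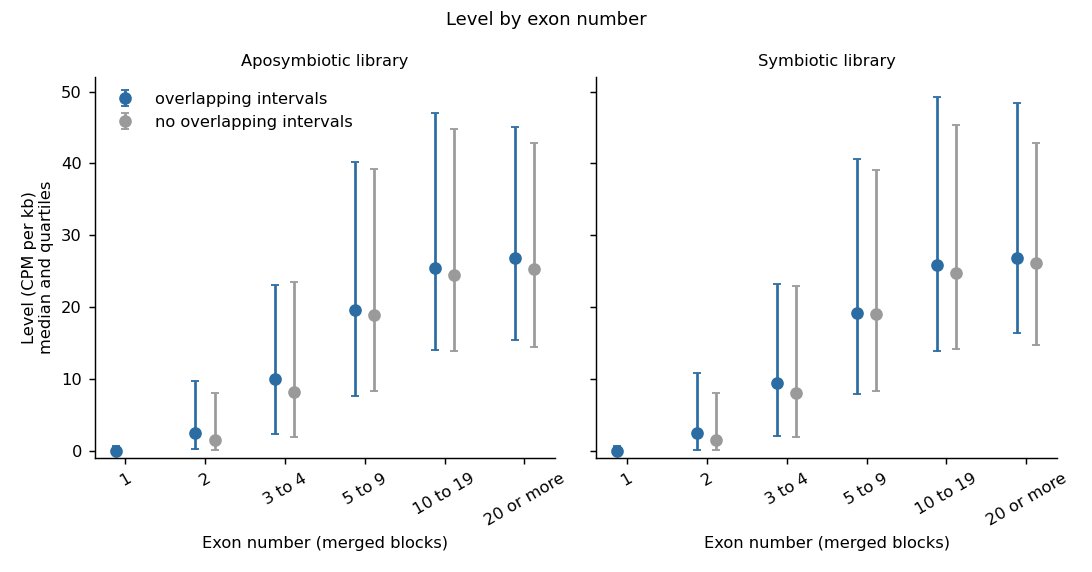
Level in CPM per kb of coding length (y axis) by number of merged blocks (x axis) in each library; points are medians and bars run from the lower to the upper quartile over models, in blue for models with overlapping intervals and grey for those without. In the aposymbiotic library the medians increase from 2.45 to 26.9 in members and from 1.51 to 25.3 in the comparison set between 2 exons and 20 or more, with wide overlap at each exon number, while members of 1 block have a median of 0.

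Members stayed longer at equal exon number. The median coding length was 1087 nt against 669 nt for models of 2 exons, 1062 against 798 nt for 3 to 4 exons and 1212 against 1080 nt for 5 to 9. For 10 to 19 exons it was 1860 against 1716 nt, and for 20 or more 3514.5 against 3366 nt. The length adds up all forms of a model, so an alternative stretch raises it. Among multi-exon models with a mean CPM of at least 1, the share that were members increased from 11.3% in the fifth with the lowest level to 15.5% in the fifth with the highest. Median exon number was 3 in the former and 8 in the latter.

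A further 381 models of the comparison set, 2.94%, listed at least 1 interval more than once without any overlap of different intervals, so that their forms differ by whole intervals. These had a median of 14 exons and 2082 nt, and median levels of 31.7 and 33.7 CPM per kb. Members of several blocks lay between these and the models with each interval listed once, whose medians were 11.9 and 12.05.

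Some kinds of boundary were carried by more abundant genes than others. The 170 members with acceptors 3 nt apart had medians of 27.3 and 26.8 CPM per kb and 13 exons, and 2 of them had no count. All 722 members with an acceptor pair had medians of 21.4 and 21.3 and 10 exons. The 631 with a donor pair had 15.7 and 15.9 with 8 exons, and the 78 with donors 4 nt apart had 19.9 and 20.1 with a median of 10.5 exons. Members of several blocks with a spanned intron, 123 in number, had 23.9 and 24.1 with 7 exons, and the 480 with an alternative start had 15.96 and 16.3 with 6 exons. Quartile ranges overlapped between all of these kinds.

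Members of 1 block were mostly low or silent. Their median level was 0 in both libraries, with upper quartiles of 0.737 and 0.744 CPM per kb, and 537 of 1229 had no count in either library, 43.7% (95% Clopper-Pearson interval 40.9 to 46.5). Among members of several blocks 3.64% had none (2.83 to 4.61), and in the comparison set 6.92% (6.49 to 7.37). The 18473 models of a single interval resembled the members of 1 block, with 45.1% lacking counts (44.4 to 45.8). Members of 1 block were longer than those models, with a median of 882 against 600 nt. Altogether they held 16574 aposymbiotic and 20462 symbiotic counts, against 804063 and 1001291 in members of several blocks.

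Distances between starts recurred among members of 1 block. A distance of 75 nt occurred in 120 pairs of 53 different coding lengths, 66 nt in 98 pairs and 219 nt in 62 pairs. The same length and distance were shared by at least 5 models in 26 combinations, 351 models in all. The most frequent was a coding length of 369 nt with starts 66 nt apart, in 91 models on 16 scaffolds, of which 66 had no count. Next came 1437 nt with 219 nt, in 38 models on 13 scaffolds, of which 23 had none, and 1461 nt with 243 nt, in 22 models on 12 scaffolds. The 351 models held 369 aposymbiotic and 432 symbiotic counts in all, and 64.1% had none (58.8 to 69.1). Among the other 878 members of 1 block 35.5% had none (32.4 to 38.8), close to the 36.5% among models of a single interval whose length is shared by fewer than 100 models. Reads with several alignments were not counted, so copies alike in sequence can be transcribed without counts.

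**Figure D4:**
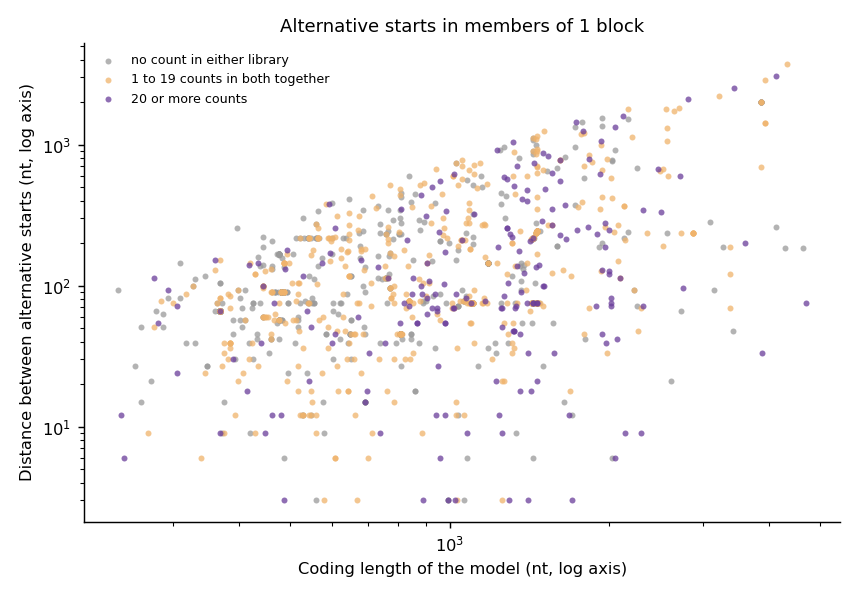
Distance between alternative starts in nt (y axis, log) against coding length in nt (x axis, log) for members of 1 block; each point is a pair of intervals, grey for models with no count in either library, light orange for 1 to 19 counts in both together and purple for 20 or more. Horizontal rows of points at 75 and 219 nt mark distances shared by 120 and 62 pairs, and identical pairs are drawn on top of each other, so the 91 models of 369 nt with starts 66 nt apart appear as a single point.

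A few members of 1 block were well expressed, and those named here were chosen after their values were seen. A model on scaffold 3 (12662253 to 12663614, plus strand, 1362 nt) had 261 CPM per kb without algae and 303 with algae. It lists an uninterrupted interval and a form with an intron of 114 nt. A model on scaffold 10 (10871772 to 10872053, plus strand, 282 nt) with starts 54 nt apart had 156 and 168 CPM per kb. In both, the libraries differed by less than 1.2-fold, the symbiotic one being higher.

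The 10 most abundant members had between 2 and 8 exons and coding lengths from 395 to 1904 nt, and their boundary differences were of several kinds and sizes. The highest level was that of a gene of 2 exons lying on scaffold 8 (2305520 to 2306022, minus strand, 395 nt), at 2035 CPM per kb without algae and 2094 with algae, and its donors lay 41 nt apart. Second was a model of 3 exons lying on scaffold 4 (4468626 to 4470166, minus strand, 477 nt), at 2016 and 2078 CPM per kb, with acceptors 6 nt apart. Both were at nearly the same level with and without algae, with log2 ratios of symbiotic over aposymbiotic of 0.041 and 0.043.

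Next came a model of 5 exons lying on scaffold 1 (13526776 to 13541432, plus strand, 1904 nt) with donors 485 nt apart, at 1992 and 1801 CPM per kb. Its span overlaps a model on the other strand. Counting did not use strand, so reads from the other strand over its exons were not told apart. Reads shared between both models were left out, and whether their exons overlap was not examined. A model of 2 exons lying on scaffold 6 (765310 to 766778, plus strand, 738 nt), with a spanned intron of 54 nt, had 1842 and 1890 CPM per kb. A 6-exon model on the same scaffold (8277102 to 8280222, plus strand, 690 nt) with acceptors 12 nt apart had 1850 and 1751. Over the 10 most abundant members, log2 ratios ran from -0.20 to 0.38, so none reached 2-fold.

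The largest ratio among these 10 belonged to a model of 8 exons lying on scaffold 2 (20919242 to 20921478, plus strand, 1338 nt) with starts 15 nt apart. Its counts were 7424 without and 11815 with algae, or 993 and 1291 CPM per kb. It stood 1.30-fold higher with algae, and its log2 ratio was 0.38 (95% counting interval 0.34 to 0.42). The lowest ratio was that of a model of 4 exons on the same scaffold (3030329 to 3032442, plus strand, 450 nt) with donors 51 nt apart, at 1088 and 949 CPM per kb. The tenth, a model of 6 exons lying on scaffold 1 (33235001 to 33237002, plus strand, 1263 nt) with 892 and 1017 CPM per kb, was the most abundant of those with acceptors 3 nt apart.

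Most members had similar levels in both polyp states. A mean CPM of at least 1 was reached by 1902 of the 3042 members, 62.5%: 1641 of the 1813 of several blocks and 261 of the 1229 of 1 block. Their median log2 ratio was 0.013 (quartiles -0.14 and 0.19), against 0.016 (-0.16 and 0.19) in the comparison set and 0.013 over all 16162 models at that level. At a mean CPM of 10 or more the log2 ratio was between -0.5 and 0.5 in 94.7% of 1378 members, and likewise in 94.7% of all 9483 models at that level. At a mean CPM of 100 or more it was so in 360 of 373 members, whose log2 ratios ran from -0.82 to 0.57.

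A member was counted as higher or lower when the libraries differed at least 2-fold and the 95% counting interval of the ratio excluded equality. By this rule 16 members were higher in the symbiotic library, 0.841%, where the background over all tested models was 0.947%. In the other direction 20 were lower, 1.05%, with a background of 1.42%. The comparison set had 79 higher and 104 lower, 0.770% and 1.01%. The members' shares are thus near the background in both directions. In bulk libraries such as these, fewer cells of a type and less RNA per cell cannot be told apart. Members of several blocks contributed 11 higher and 12 lower, and members of 1 block 5 and 8. The latter are 1.92% and 3.07% of the 261 tested. Among the 3877 tested models of a single interval, 1.496% were higher and 2.66% lower. The tested models of both these sets had a median mean CPM of 3.39. The shares of members of 1 block lay nearer to those of single-interval models than to the background. The median mean CPM was 2.48 among the higher and 2.85 among the lower members.

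**Figure D5:**
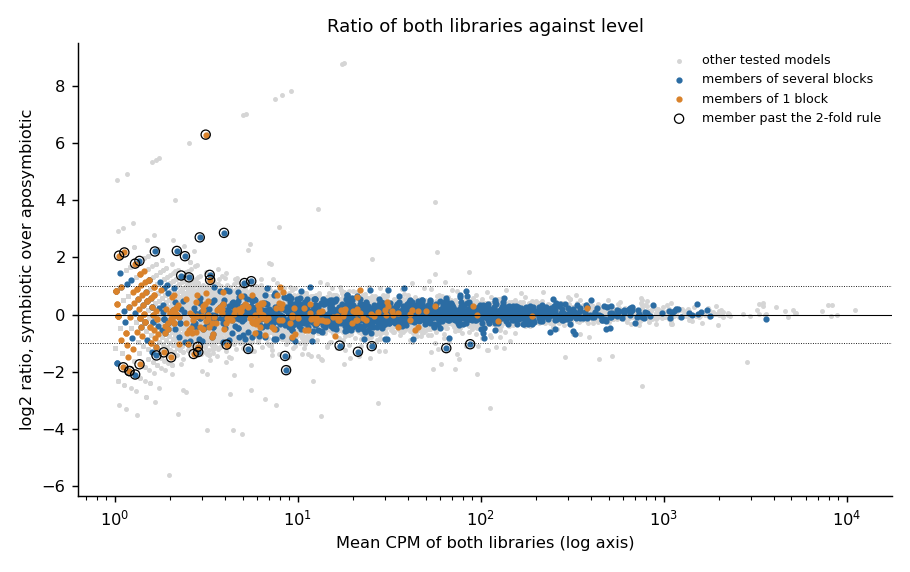
Log2 ratio of symbiotic over aposymbiotic level (y axis) against mean CPM of both libraries (x axis, log) for models with a mean CPM of at least 1; blue points are members of several blocks, orange points members of 1 block and grey points other models, and rings mark the 36 members past the 2-fold rule. Members past the rule lie mostly at low CPM, and the 5 at 10 CPM or more are all lower in the symbiotic library.

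At a mean CPM of at least 10, no member was higher and 5 were lower, 0.363%, where the background was 0.137% higher and 0.538% lower. At a mean CPM of at least 5, 2 members were higher and 8 lower, where the background was 0.253% and 0.637% of models, and all 10 had several blocks.

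The higher pair was of low abundance. Model cHydvir-v1B3C1_g20632 (scaffold 3, 19033648 to 19039237, minus strand, 4 exons, 1233 nt) was counted 19 times without and 53 times with algae, 2.28-fold higher (95% counting interval 1.33 to 4.07). It lists 3 alternative starts, with neighbouring starts 48 and 138 nt apart. Model cHydvir-v1B3C1_g26800 (scaffold 6, 3098851 to 3107175, plus strand, 3 exons, 3345 nt) was counted 18 and 48 times, 2.18-fold higher (1.24 to 3.98). It carries a spanned intron of 252 nt.

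Among the lower members, cHydvir-v1B3C1_g21346 (scaffold 4, 2466024 to 2467009, minus strand, 3 exons, 462 nt) ranked first by the interval bound nearest to equality. Its counts were 77 without and 24 with algae, 3.93-fold higher without, and its log2 ratio was -1.95 (-2.70 to -1.30). Its forms start 57 nt apart and share all else. Model cHydvir-v1B3C1_g5827 (scaffold 10, 13834758 to 13846207, plus strand, 4 exons, 5512 nt) was counted 503 and 272 times, and its log2 ratio was -1.18 (-1.40 to -0.96). Its donors lie 4 nt apart.

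The other 6 lower members spanned mean levels from 5.37 to 87.6 CPM. Counts for a model of 5 exons lying on scaffold 9 (700434 to 706311, plus strand), with acceptors 6 nt apart, were 170 without and 84 with algae. Its log2 ratio was -1.30 (-1.70 to -0.92). The model with the highest mean CPM of these, of 11 exons and lying on scaffold 1 (581804 to 604007, minus strand), had donors 42 nt apart. It was counted 659 and 392 times, and its log2 ratio was -1.04 (-1.23 to -0.86). Acceptors lay 81 nt apart in a model of 8 exons lying on scaffold 13 (9958488 to 9975453, minus strand), which was counted 194 and 110 times, with its log2 ratio at -1.11 (-1.46 to -0.77).

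At the low end of mean CPM, a model of 7 exons lying on scaffold 16 (2920821 to 2923305) was counted 70 and 31 times. A model of 2 exons lying on scaffold 1 (291393 to 292062) was counted 129 and 74 times. Divided by its short coding length, the levels of the latter were 57.0 and 26.7 CPM per kb. For another of 2 exons, lying on scaffold 2 (6525001 to 6527358), the counts were 42 and 22. Their log2 ratios were -1.45, -1.09 and -1.20, and the boundary differences were a donor and an acceptor pair in the first, starts 6 nt apart in the second and donors 6 nt apart in the third.

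A single member was absent from the counts of 1 library while reaching 20 or more in the other. It was a model of 1 block on scaffold 60 (20222 to 21781, minus strand, 1560 nt) with starts 348 nt apart, chosen here after its values were seen. Its counts were 43 with and 0 without algae. Set against a floor of 3 counts in the aposymbiotic library, its symbiotic level was 11.7-fold higher, and the lower end of its counting interval was 9.12-fold. That floor is 5.42e-05% of the aposymbiotic total. It was 1 of the 5 higher members of 1 block. How many of all models met the same rule is not given here, so no background share can be set beside it.

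Ratios also differed little between kinds of boundary. Median log2 ratios were 0.0097 for members with an acceptor pair, 0.022 with a donor pair, -0.0080 with an alternative start and 0.060 with a spanned intron. They were -0.018 for acceptors 3 nt apart and 0.045 for donors 4 nt apart. Each median is small beside the spread of members, which ran from -0.41 to 0.46 (5th to 95th percentile) for acceptor pairs and from -0.50 to 0.68 for spanned introns. Counts were made per model, so the use of 1 form over another in either polyp state was not analysed here.

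The members with most distinct intervals were long genes with a single boundary difference. A model of 68 exons on scaffold 16 (64230 to 92988, plus strand, 4662 nt) had acceptors 42 nt apart and 10.8 and 11.3 CPM per kb. A model of 65 exons on scaffold 2 (11533722 to 11577820, minus strand, 8808 nt) had acceptors 3 nt apart and 11.9 and 11.1 CPM per kb. One of 61 exons on scaffold 7 (6218720 to 6250140, plus strand, 7389 nt), with donors 6 nt apart, had 21.9 and 26.2. A pair of 56-exon models on scaffold 2 stood higher. The model from 9819779 to 9859202, whose span overlaps a model on the other strand, had 36.7 and 39.7 CPM per kb with starts 3 nt apart. The one from 10669125 to 10695748 had 36.2 and 34.8 with acceptors 12 nt apart. Over these 5, log2 ratios ran from -0.094 to 0.26.

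The most transcripts were listed for a model of 25 exons lying on scaffold 10 (13083028 to 13098241, plus strand, 2130 nt), chosen after its values were seen. It has at least 12 transcripts and 274 listed intervals but only 26 distinct ones, with acceptors 3 nt apart as its single overlapping pair. Its level was 237 CPM per kb without and 215 with algae. A model of 10 exons lying on scaffold 2 (6532933 to 6539442, minus strand, 4857 nt) has at least 9 transcripts. It combines donors 9 and 24 nt apart, acceptors 3 nt apart and a spanned intron of 69 nt. It was counted 1834 times without and 3219 times with algae, 1.43-fold higher, and its log2 ratio was 0.52 (0.44 to 0.60).

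The longest spanned intron among members with a mean CPM of at least 5 was one of 1386 nt in a model of 8 exons lying on scaffold 3 (3229461 to 3242867, plus strand, 7629 nt), at 14.99 and 15.2 CPM per kb. The next, of 630 nt, was in a model of 2 exons lying on scaffold 8 (2132982 to 2137874, plus strand, 3975 nt). It was counted 389 and 343 times, and its log2 ratio was -0.47 (-0.69 to -0.26). The third, of 399 nt, was in a model of 1 block on scaffold 4 (960154 to 963069, plus strand) with 97 and 126 counts. Its counting interval, from -0.31 to 0.48, included equality.

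At the length limit, the members next under 10000 nt were of 9614, 9606 and 9321 nt, at 114 and 129, 4.12 and 5.84, and 56.1 and 53.4 CPM per kb in the aposymbiotic and symbiotic libraries. The models with such overlaps next above it were of 10077, 10110 and 10185 nt, at 61.7 and 63.1, 34.6 and 35.1, and 13.9 and 13.3. In all, 37 models with overlapping intervals were left out by the limit.

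Members lay on 34 of the 105 scaffolds, 96.9% of them on the 16 scaffolds with most models. On these 16, members made up between 7.06% and 10.98% of models. Members of several blocks made up between 9.23% and 14.5% of multi-exon models, and members of 1 block between 2.11% and 4.43% of all models. Strands were used evenly, with 1517 members on the plus and 1525 on the minus strand. The span of 52 members overlapped a model on the other strand. Of members of several blocks 48 did, 2.65%, against 1.31% in the comparison set and 0.325% of members of 1 block. The median span was 5848, 3022 and 882 nt in these sets, in the same order, and the shares were not compared at equal span.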

How the data were processed

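Total RNA of whole polyps was sequenced in pairs of reads, 1 library per condition. The labels' molecule field says polyA RNA and their protocol text total RNA; the latter was followed. Besides the counter, deepTools 3.5.6, STAR 2.7.11b and fastp 1.1.0 appear in the submitters' processing notes. The deposited counts are raw read pairs per model; per the file headers the authors ran featureCounts (Subread 2.1.1) over exon features of a BRAKER3 annotation, unstranded and without multiply aligned reads or reads shared between models. BRAKER3 can draw on RNA-seq evidence; which reads it used, and the genome build, are not given in the sources used here. The column of other values used is the deposited coding length, the union of a model's intervals, per the file headers.

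Library sizes were scaled by TMM in edgeR 4.0.16 (R 4.3.3), with factors of 1.01 and 0.991. Log2 ratios used a prior count of 0.5, and counting intervals are exact 95% Clopper-Pearson intervals of the symbiotic share of a model's summed counts. No test or p-value was possible with 1 library per condition. Medians with quartiles describe models, which are not replicates. Models with a mean CPM of at least 1 entered ratios. Overlapping intervals were merged, classed by strand, and tested on simulated data. Named models were the 10 of highest level, up to 10 per direction past the 2-fold rule with a mean CPM of at least 5, the 5 with most distinct intervals, 3 on each side of the length limit and 3 with the longest spanned intron. The members and lists were chosen with earlier results of these data known. Lists of cell type markers could not be formed without gene names. Calculations used scipy 1.17.1, pandas 2.3.3 and numpy 2.4.6 in Python 3.11.15, and plots matplotlib 3.10.9.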

Additional observations from a re-analysis of the deposited data

How the results depend on the processing

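Of 78 alternative values, 49 stayed within their interval or within 1.5 times the reported count, 28 moved and 1 reversed. Leaving out recurring 1-block members, taking models of a single interval as comparison, and the subsets of boundary pairs were chosen after seeing the data. With total counts alone, the median log2 ratio was -0.014 in members and -0.011 in the comparison set, the reversal, and with the upper quartile that of the comparison set was 0.0030, since a scaling shifts both sets alike. Past 2-fold, 0 members were higher and 5 lower when a mean CPM of 10 was required, and 31 and 33 when the counting interval was ignored. Without members of 1 block, 1813 members remained, 12 of them lower, with a median level of 18.7 CPM per kb, a median length of 1539 nt and a median of 8 exons. Counting distinct or listed intervals as exons gave members a median of 4 and 6. Restricted to models with an interval listed more than once, the comparison set had a median level of 33.6 CPM per kb, 2082 nt, 14 exons and a log2 ratio of 0.068; with each interval listed once, its level was 11.99. Without division by length its level was 13.7 CPM. Leaving out models with 0 counts gave 11.6 CPM per kb in members and 14.4 in the comparison set. Without recurring 1-block members the members' level was 8.87, and models of a single interval had 0.107. Acceptor pairs of 3 nt were 25.6% in members with 1 pair and 53.9% in those with 1 differing boundary. Donor pairs of 4 nt were 8.67% and 0%. The subset with 1 differing boundary holds frame-keeping shifts by construction, so its 0% was fixed in advance and its 53.9% was raised. Spanned introns of a multiple of 3 were 88.8% in members of several blocks, a share also partly fixed by construction. No paired analysis was possible because each condition has 1 library. The counting intervals do not cover all of the spread: the robust SD of the log2 ratio was 0.169 among the 126 members of 3000 or more counts, 4.07 times that of counting error.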
